A study of Rattus norvegicus with 12 samples.

Results

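The receptors through which cardiac myocytes sense catecholamines, the G protein subunits that carry their signal and the RGS proteins that end it were followed as 9 genes among the 18469 in the deposited tables. They were taken by symbol: the α1-adrenergic receptor genes Adra1a, Adra1b and Adra1d, the β1-adrenergic receptor gene Adrb1, the Gq class α subunit genes Gnaq and Gna11, and the regulators of G protein signalling Rgs2, Rgs3 and Rgs4. All 9 were present in the tables, and all 9 passed the filter on low counts in every comparison. RNA-seq was carried out on neonatal rat ventricular myocytes (NRVMs), primary heart muscle cells from Sprague-Dawley rat pups that were purified from fibroblasts on a density gradient and kept in an insulin-transferrin-selenium medium. The 12 libraries fell into 4 groups of 3. The siNeg group received a negative control siRNA and no phenylephrine. The siNeg PE group received the same siRNA and then phenylephrine (PE), an agonist of α1-adrenergic receptors, for 36 h starting 12 h after transfection. The siSlc25a26 and siSlc25a26 PE groups were labelled as transfected with an siRNA against Slc25a26, a mitochondrial carrier of S-adenosylmethionine, without and with the same PE treatment. The text of the study describes knockdown of another gene, Nap1l5, and another PE schedule, so the groups are named here only as the labels name them. The study's text calls the samples of a group biological replicates, while the labels do not say which cultures or litters they came from, so p-values measure the spread between these libraries.

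As background, α1-adrenergic receptors bind noradrenaline and adrenaline and couple to Gq class proteins. The α subunits of this class, which include those encoded by Gnaq and Gna11, switch on phospholipase Cβ, which raises inositol trisphosphate and diacylglycerol. This pathway drives hypertrophic growth of cardiac myocytes. The β1-adrenergic receptor couples to Gs and cyclic AMP and is the main receptor for the rate and force of the heart beat. RGS proteins speed the hydrolysis of GTP by Gα subunits and so shorten the signal. Rgs2 acts chiefly on Gq class subunits, while Rgs3 and Rgs4 act on both Gq and Gi class subunits.

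Total counts per library ranged from 24770972 to 28709049. Slc25a26, the labelled target, had 33.2, 31.6 and 29.3 TMM-normalized CPM (counts scaled to library size) in siNeg and 15.8, 14.9 and 14.7 CPM in siSlc25a26 libraries, a log2 fold change of -1.08 (SE 0.0798; adjusted p = 1.08e-05, edgeR quasi-likelihood test with Benjamini-Hochberg adjustment, as for every adjusted p here unless another tool is named). Under PE the same gene stood at 102 ± 14.1 CPM in siNeg and 102 ± 3.69 CPM in the libraries labelled siSlc25a26 (mean ± SD, n = 3), so the label was not borne out by the target's level there (log2 fold change -0.01, SE 0.101, adjusted p = 0.969). Nap1l5 was lower in the libraries labelled siSlc25a26 both without PE (log2 fold change -0.84, SE 0.286, adjusted p = 0.0397) and with it (log2 fold change -1.05, SE 0.147, adjusted p = 0.000636). Without PE the libraries overlapped, at 2.54 to 4.72 CPM in siNeg and 1.4 to 2.75 CPM in siSlc25a26, and under PE they did not. Every direction given below for the libraries labelled siSlc25a26 under PE rests on the label alone. The PE label was borne out by the natriuretic peptide gene Nppa, which rose 24.7-fold in siNeg and 22.9-fold in siSlc25a26 cells (adjusted p = 2.22e-06 and 1.99e-07).

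The cell type label was checked against marker lists as summed FPKM, the authors' unit of fragments scaled to the length of the gene model and to the size of the library. All 11 cardiomyocyte markers were detected, and their sum averaged 11800, 14400, 11600 and 13800 FPKM in siNeg, siNeg PE, siSlc25a26 and siSlc25a26 PE libraries. Markers of other cells moved with both treatments. The 10 fibroblast markers summed to 4890-5330 FPKM in siNeg, 2660-2690 in siNeg PE, 2910-3270 in siSlc25a26 and 1800-2050 in siSlc25a26 PE libraries. Col1a1 (2380 FPKM) and Col3a1 (1280 FPKM) were the largest terms of the siNeg sum. Under PE in siNeg cells 6 of the 10 genes were lower and 4 were higher. The higher ones were Pdgfra, Dcn, Postn and Lum (log2 fold changes 0.37, 0.27, 0.14 and 0.04), each within 1.5-fold. For the 9 smooth muscle and pericyte markers the ranges were 2600-2800, 1200-1490, 1300-1510 and 1140-1200 FPKM in the same order. Acta2 (1320 FPKM) and Tagln (1150 FPKM) were the largest terms of that sum in siNeg. Under PE 7 of these 9 genes were lower and 2 higher in siNeg cells, and 6 lower and 3 higher in siSlc25a26 cells. Cnn1 was higher in both (log2 fold changes 1.58 and 3.35). The 12 immune markers summed to 92.5-113, 50.3-57.0, 52.9-61.5 and 31.9-38.2 FPKM, with Ptprc, Cd3e and C1qb among those under 0.5 FPKM in every library. The 10 endothelial markers summed to at most 13.4 FPKM, with Pecam1, Cdh5, Tie1, Vwf, Emcn and Erg under 0.5 FPKM in every library, and the Schwann cell and neuron markers to at most 9.13 FPKM. These are bulk libraries, in which fewer cells of a type and less RNA per cell cannot be told apart, and the part these shifts have in the member values was not tested.

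**Figure D1:**
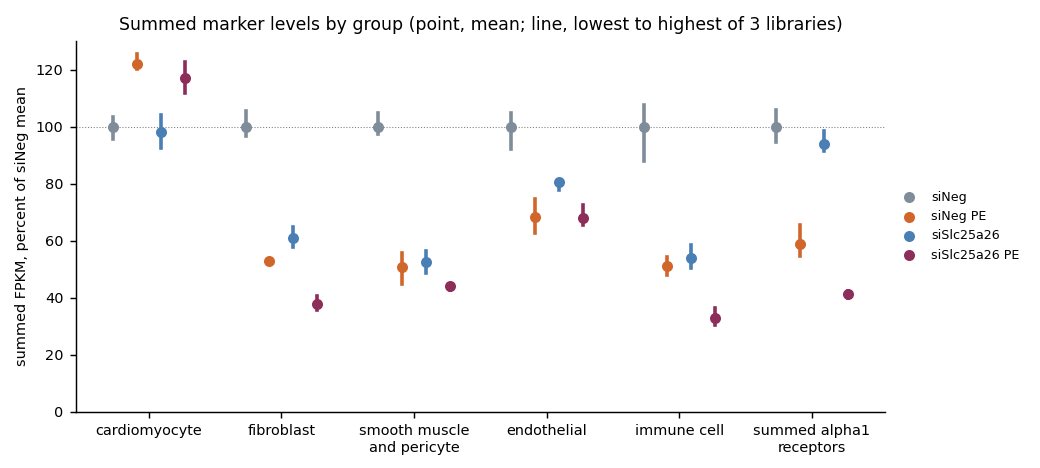
Summed FPKM of 5 marker lists and of the 3 α1-adrenergic receptor genes, as a percent of the siNeg mean (vertical axis), for the 4 groups (colours). Points are means and lines run from the lowest to the highest of 3 libraries. Cardiomyocyte markers stay near or above the siNeg mean, while the other lists and the summed α1 receptors are lower under PE.

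On the per-length scale the order of the 9 genes changed with treatment. The deposited values imply gene model lengths such as 1.1 kb for Rgs2 and 2.5 kb for Gna11, which enter this order. As CPM, without a length, Rgs2 was below Gna11 under PE, at 50.1 against 89.8 in siNeg PE and 68.9 against 93.5 in siSlc25a26 PE libraries. In siNeg cells Adra1b was the most abundant at 49.7 ± 2.20 FPKM, followed by Gna11 at 40.9 ± 1.38, Adrb1 at 34.2 ± 3.73 and Rgs2 at 21.1 ± 0.993 FPKM (mean ± SD, n = 3), and the libraries of these neighbours did not overlap. Adra1d (18.4 FPKM) and Rgs3 (17.4 FPKM) overlapped each other, as did Adra1a (7.28 FPKM) with Gnaq (6.11 FPKM), and Gnaq with Rgs4 (5.04 FPKM). In siNeg PE cells Rgs2 led at 44.6 ± 5.38 FPKM above Gna11 at 35.3 ± 1.73 FPKM without overlap, while Adra1b (25.3 FPKM) and Adrb1 (24.0 FPKM) could not be separated. In siSlc25a26 cells Adrb1 (46.1 FPKM), Adra1b (42.5 FPKM) and Gna11 (40.1 FPKM) led, each overlapping its neighbour. In siSlc25a26 PE cells Rgs2 led at 59.9 ± 5.23 FPKM, Gna11 followed at 35.2 ± 1.67 FPKM, and Adra1b had dropped to the seventh place at 11.4 ± 1.39 FPKM, overlapping Gnaq at 11.5 FPKM. Rgs4 had the lowest mean of the 9 in each of the 4 groups, at 3.19 to 5.41 FPKM, but overlapped Gnaq in siNeg and Adra1d (4.08 FPKM) in siSlc25a26 PE libraries.

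The sequences before the transcription start are shown for the receptors Adra1b, Adra1d and Adrb1, whose response to PE differed between the siRNAs, and for Rgs2, which rose under PE with both. Each is the 250 bases before the RefSeq start on the gene's own strand, 5′ to 3′, in the rat assembly GRCr8, which is a later build than the Rnor_6.0 named in the submitters' processing notes. Adra1b lies at chr10:28814348-28814597 (minus strand), Adra1d at chr3:139262332-139262581 (minus strand), Adrb1 at chr1:265776853-265777102 (plus strand) and Rgs2 at chr13:58352667-58352916 (minus strand). Capitals mark every match, on either strand, to the letters TGACGTCA (the cyclic AMP response element, CRE), TGACG (its core, which every CRE also holds), TGACTCA (AP-1 site) and CATTCC (MCAT element), and to those of the TATA box (TATAAA), the GC box (GGGCGG) and the box named by its own letters, CCAAT.
Adra1b: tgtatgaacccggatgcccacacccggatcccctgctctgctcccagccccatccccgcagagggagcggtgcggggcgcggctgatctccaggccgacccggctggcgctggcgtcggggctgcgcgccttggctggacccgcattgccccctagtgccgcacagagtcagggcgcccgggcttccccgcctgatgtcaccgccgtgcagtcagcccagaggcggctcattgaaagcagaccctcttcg
Adra1d: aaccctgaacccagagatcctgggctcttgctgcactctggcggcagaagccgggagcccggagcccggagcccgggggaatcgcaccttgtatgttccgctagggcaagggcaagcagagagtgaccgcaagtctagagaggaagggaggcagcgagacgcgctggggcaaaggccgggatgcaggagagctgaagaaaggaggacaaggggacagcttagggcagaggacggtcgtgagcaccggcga
Adrb1: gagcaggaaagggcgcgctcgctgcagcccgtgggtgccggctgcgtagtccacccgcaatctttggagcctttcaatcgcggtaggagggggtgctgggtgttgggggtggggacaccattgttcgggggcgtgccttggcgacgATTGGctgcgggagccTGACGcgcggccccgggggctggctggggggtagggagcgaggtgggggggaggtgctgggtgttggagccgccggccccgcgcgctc
Rgs2: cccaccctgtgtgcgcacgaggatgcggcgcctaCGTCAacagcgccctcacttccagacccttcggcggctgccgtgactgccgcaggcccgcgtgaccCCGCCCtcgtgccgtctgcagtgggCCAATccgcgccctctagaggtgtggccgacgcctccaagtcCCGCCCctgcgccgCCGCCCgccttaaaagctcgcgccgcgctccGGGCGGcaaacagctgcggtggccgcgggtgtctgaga

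Of the 9 genes, 8 had an entry in the RefSeq promoter table, and Adra1a did not. The TGACG core was found in 5 of these 8 windows, at position -88 in Adrb1, -28 in Gnaq, -216 in Rgs2, -29 in Rgs3 and -153 in Rgs4, counting -1 as the base before the start. It is held by 18.2% of all 33469 promoters there. The full CRE (1.59% of all promoters) and the AP-1 letters (4.05%) were in none of the 8. GC boxes were in Gnaq (1), Gna11 (2), Rgs2 (4) and Rgs3 (2), against 30.5% of all promoters with at least 1. CCAAT boxes were in Adrb1 (1), Rgs2 (1) and Rgs4 (2), against 34.0%, and TATA boxes in Rgs3 and Rgs4, against 12.9%. The MCAT letters were in Gna11 alone, against 12.1%. The windows of Adra1b and Adra1d, whose levels fell together, held none of the searched letters. GC content ran from 54.4% in Rgs4 to 80.0% in Gnaq, above the 51.2% median of all promoters in each of the 8. These matches describe letters in short windows and say nothing of the factors.

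The first comparison asked what PE did to its own receptors and their pathway in control cells. A gene was called when it changed more than 1.5-fold at an adjusted p under 0.05. Of the 9 genes, 2 rose (Adra1a and Rgs2), 4 fell (Adra1b, Adra1d, Rgs3 and Rgs4) and 3 were not called, and the median of the 9 log2 fold changes was -0.47, against 0.00 for all genes. Across the 13719 genes tested, 12.4% were called higher and 8.24% lower. In siSlc25a26 cells, where 10.1% of 13776 genes were called higher and 10.4% lower, 2 of the 9 rose (Adra1a and Rgs2), 3 fell (Adra1b, Adra1d and Adrb1) and 4 were not called, with a median of -0.36 against -0.004 for all genes. Exact permutation tests of 3 against 3 libraries cannot go below a two-sided p of 0.1, and where groups are said not to overlap that test gave 0.1.

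**Figure D2:**
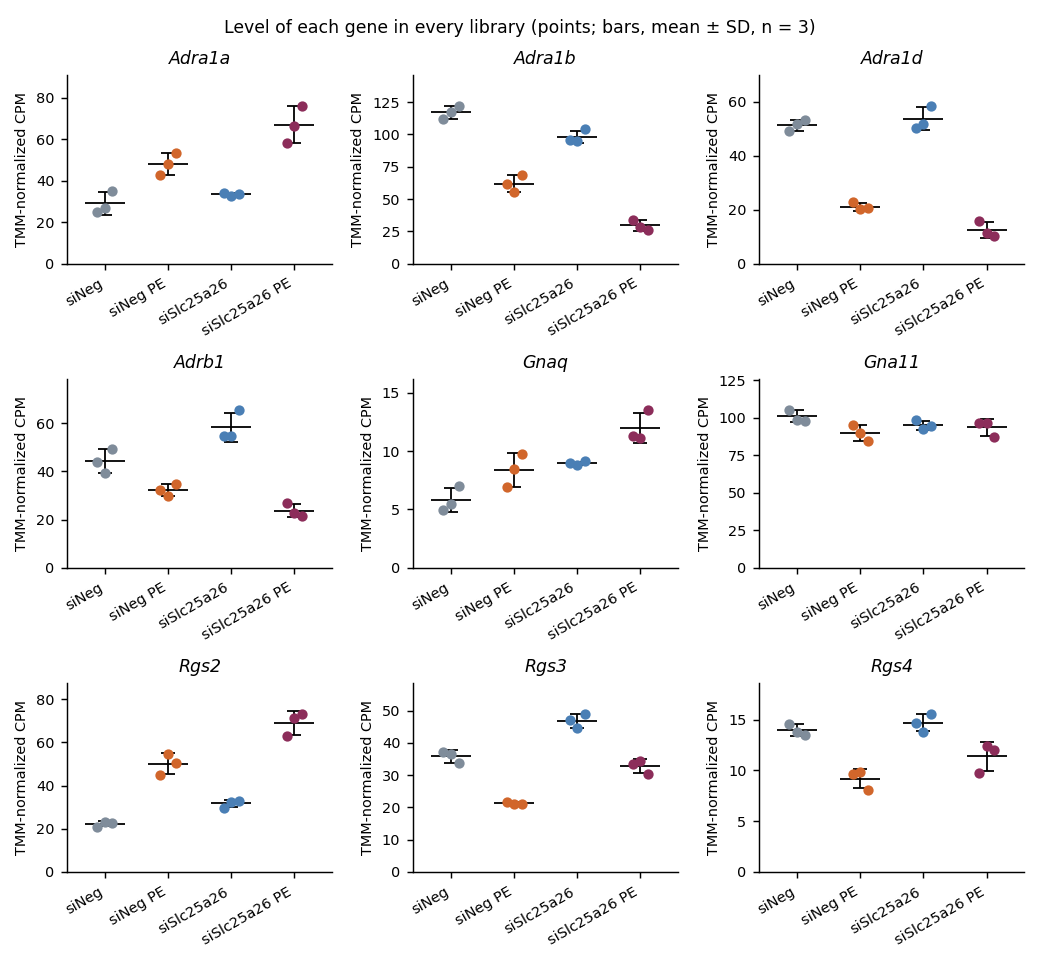
TMM-normalized CPM (vertical axes, starting at 0) of the 9 genes in each of the 12 libraries, by group. Coloured points are libraries, wide bars the mean and whiskers the SD (n = 3). Adra1a and Rgs2 are higher under PE with both siRNAs, while Adra1b, Adra1d and Adrb1 are lower.

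Among the α1 receptors, the A subtype moved against the other subtypes. Adra1a, the subtype gene best known for supporting myocyte growth and survival, read 25.0, 27.0 and 35.1 CPM in siNeg and 42.9, 48.1 and 53.4 CPM in siNeg PE libraries. It read 34.1, 32.6 and 33.6 CPM in siSlc25a26 and 58.3, 66.5 and 75.9 CPM in siSlc25a26 PE libraries. Every PE library was above every untreated library with either siRNA. PE thus raised Adra1a 1.65-fold in siNeg cells (log2 fold change 0.72, SE 0.136, adjusted p = 0.00327) and 2.02-fold in siSlc25a26 cells (log2 fold change 1.01, SE 0.0948, adjusted p = 3.21e-05).

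Adra1b, the most abundant α1 receptor gene of untreated cells, went the other way. Its levels were 112, 117 and 122 CPM in siNeg and 61.7, 55.5 and 68.3 CPM in siNeg PE libraries. They were 95.7, 95.0 and 104 CPM in siSlc25a26 and 33.9, 28.2 and 26.3 CPM in siSlc25a26 PE libraries. The 4 groups formed 4 separate levels with no overlap, siNeg the highest and siSlc25a26 PE the lowest. PE lowered the gene 1.91-fold in siNeg cells (log2 fold change -0.93, SE 0.0840, adjusted p = 0.000101) and 3.31-fold in siSlc25a26 cells (log2 fold change -1.73, SE 0.0914, adjusted p = 1.05e-06).

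Adra1d, the third α1 subtype gene, fell most among the 9. It stood at 49.1, 51.7 and 53.2 CPM in siNeg and at 22.9, 20.1 and 20.5 CPM in siNeg PE libraries. In siSlc25a26 libraries it stood at 50.5, 52.0 and 58.5 CPM, and in siSlc25a26 PE libraries at 15.8, 11.4 and 10.4 CPM. The untreated groups overlapped each other and lay far above both PE groups, and the siSlc25a26 PE libraries were all below the siNeg PE libraries. The fall was 2.45-fold in siNeg cells (log2 fold change -1.29, SE 0.0715, adjusted p = 1.2e-05) and 4.25-fold in siSlc25a26 cells (log2 fold change -2.09, SE 0.138, adjusted p = 3.98e-06).

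The make-up of the α1 receptor transcripts changed with these opposite movements. Summed over the 3 subtype genes, α1 receptor FPKM went from 75.3 ± 4.16 in siNeg to 44.4 ± 4.21 in siNeg PE libraries, and from 70.7 ± 3.13 in siSlc25a26 to 31.1 ± 0.988 in siSlc25a26 PE libraries. Within this sum the Adra1a share was 8.90%, 8.92% and 11.0% in siNeg and 24.4%, 28.6% and 27.4% in siNeg PE libraries. It was 12.8%, 12.2% and 11.6% in siSlc25a26 and 43.1%, 51.1% and 56.9% in siSlc25a26 PE libraries. Thus Adra1a went from the smallest of the subtype shares in untreated cells to a mean of 50.4% in siSlc25a26 PE cells. The implied gene model lengths of 4.0 kb for Adra1a, 2.4 kb for Adra1b and 2.9 kb for Adra1d enter these sums and shares. The FPKM ratio of Adra1b to Adra1a was 6.94 ± 0.906 in siNeg, 2.13 ± 0.224 in siNeg PE, 4.93 ± 0.223 in siSlc25a26 and 0.744 ± 0.194 in siSlc25a26 PE libraries, and no pair of groups compared overlapped. The Adra1d share was 24.4% in siNeg and 16.4% in siNeg PE cells, and 27.7% and 13.1% in the siSlc25a26 groups without and with PE, without overlap in either PE comparison.

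**Figure D3:**
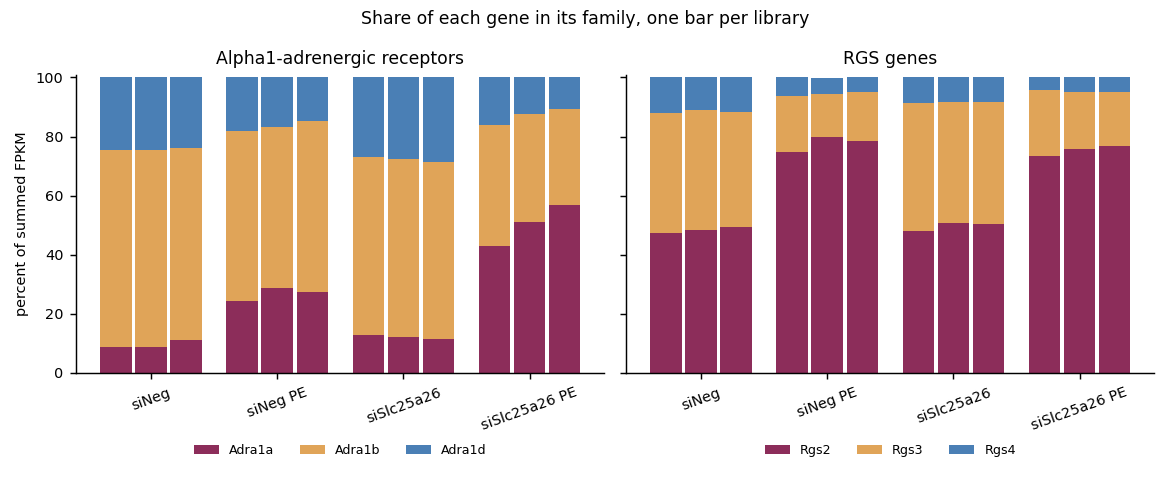
Share of each gene in the summed FPKM of its family (vertical axis, percent), with 1 bar per library in the 4 groups. Left, the α1 receptor genes, where the Adra1a share grows under PE to 43.1-56.9% in siSlc25a26 PE libraries. Right, Rgs2, Rgs3 and Rgs4, where the Rgs2 share is 47.3-50.8% without PE and 73.3-79.7% with PE.

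Adrb1, the β1-adrenergic receptor gene, was lower under PE with both siRNAs but passed the call in siSlc25a26 cells alone. It read 43.9, 39.4 and 49.2 CPM in siNeg and 32.3, 29.6 and 34.7 CPM in siNeg PE libraries. In siSlc25a26 it read 54.8, 54.6 and 65.3 CPM without PE and 26.7, 22.9 and 21.5 CPM with PE. The groups did not overlap in either PE comparison. In siNeg cells the change stayed within 1.5-fold (log2 fold change -0.47, SE 0.0984, adjusted p = 0.00539), whereas in siSlc25a26 cells the gene fell 2.44-fold (log2 fold change -1.29, SE 0.101, adjusted p = 1.09e-05). The ratio of summed α1 FPKM to Adrb1 FPKM was 2.22 ± 0.209 in siNeg and 1.85 ± 0.0319 in siNeg PE libraries, and 1.54 ± 0.0768 and 1.87 ± 0.187 in siSlc25a26 libraries without and with PE, a lower ratio with PE in siNeg cells and a higher one in siSlc25a26 cells.

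Of the Gq class subunit genes among the members, neither Gnaq nor Gna11 was called under PE with either siRNA. Gnaq had 4.93, 5.49 and 6.97 CPM in siNeg and 6.93, 8.48 and 9.78 CPM in siNeg PE libraries, and these groups overlapped. With siSlc25a26 it had 8.96, 8.83 and 9.11 CPM without PE and 11.3, 11.1 and 13.5 CPM with PE, without overlap. Neither PE change was called, at a log2 fold change of 0.52 (SE 0.175, adjusted p = 0.0366) in siNeg and 0.43 (SE 0.103, adjusted p = 0.00741) in siSlc25a26 cells, although in siNeg cells the call was made without siNeg replicate 3 (0.67) or without siNeg PE replicate 1 (0.65). Gnaq had 136 to 348 counts per library, so counting error weighs more on it than on the receptor genes Adra1a, Adra1b and Adrb1. Rgs4, at 203 to 446 counts, and Adra1d in siSlc25a26 PE libraries, at 270 to 404, overlapped that range. Gna11, which is widely expressed, lay between 84.5 and 105 CPM in every library, with log2 fold changes of -0.18 (SE 0.0605, adjusted p = 0.0402) in siNeg and -0.01 (SE 0.0565, adjusted p = 0.860) in siSlc25a26 cells. Of the summed FPKM of Gnaq and Gna11, Gna11 made up most throughout. Its mean share was 87.0% in siNeg, 80.6% in siNeg PE, 80.5% in siSlc25a26 and 75.5% in siSlc25a26 PE libraries. The deposited values imply a gene model of 0.97 kb for Gnaq and 2.5 kb for Gna11, which enters any level set between them.

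The RGS genes split under PE. Rgs2, the member that acts chiefly on Gq, read 21.0, 22.9 and 22.8 CPM in siNeg and 45.0, 54.8 and 50.3 CPM in siNeg PE libraries. It read 29.8, 32.6 and 32.9 CPM in siSlc25a26 and 62.8, 71.1 and 72.9 CPM in siSlc25a26 PE libraries. All 4 groups were apart from each other. The rise was 2.23-fold in siNeg (log2 fold change 1.16, SE 0.0868, adjusted p = 4.3e-05) and 2.19-fold in siSlc25a26 cells (log2 fold change 1.13, SE 0.0768, adjusted p = 4.7e-06).

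Rgs3 was lower under PE. It had 37.2, 36.6 and 33.7 CPM in siNeg, 21.8, 20.9 and 21.2 CPM in siNeg PE, 47.1, 44.5 and 48.8 CPM in siSlc25a26 and 33.3, 34.5 and 30.5 CPM in siSlc25a26 PE libraries. Neither pair of groups overlapped in the PE comparisons, and the siSlc25a26 PE libraries were all above the siNeg PE libraries. Rgs3 fell 1.70-fold in siNeg cells (log2 fold change -0.77, SE 0.0697, adjusted p = 0.000108) and differed by a log2 fold change of -0.50 (SE 0.0677, adjusted p = 0.000289) in siSlc25a26 cells, within 1.5-fold and so not called. On the FPKM scale that second change was called (limma on log2(FPKM + 1), -0.721).

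Rgs4 was the lowest of the RGS members, at 14.6, 13.8 and 13.5 CPM in siNeg and 9.67, 9.80 and 8.10 CPM in siNeg PE libraries. In siSlc25a26 libraries it had 14.7, 13.8 and 15.5 CPM, and with PE 9.75, 12.4 and 12.0 CPM. The PE libraries were below the untreated ones with both siRNAs. It fell 1.53-fold in siNeg cells (log2 fold change -0.62, SE 0.103, adjusted p = 0.00183), a call lost without siNeg replicate 1 (-0.57), without siNeg PE replicate 3 (-0.54) or with limma on log2(FPKM + 1) (-0.529), and was not called in siSlc25a26 cells (log2 fold change -0.36, SE 0.107, adjusted p = 0.0207). As a share of the summed FPKM of the 3 RGS members, Rgs2 made up 48.4% ± 1.06 in siNeg, 77.7% ± 2.52 in siNeg PE, 49.7% ± 1.38 in siSlc25a26 and 75.3% ± 1.78 in siSlc25a26 PE libraries. The sum itself was 43.5, 57.4, 63.9 and 79.5 FPKM on average in the same order.

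**Figure D4:**
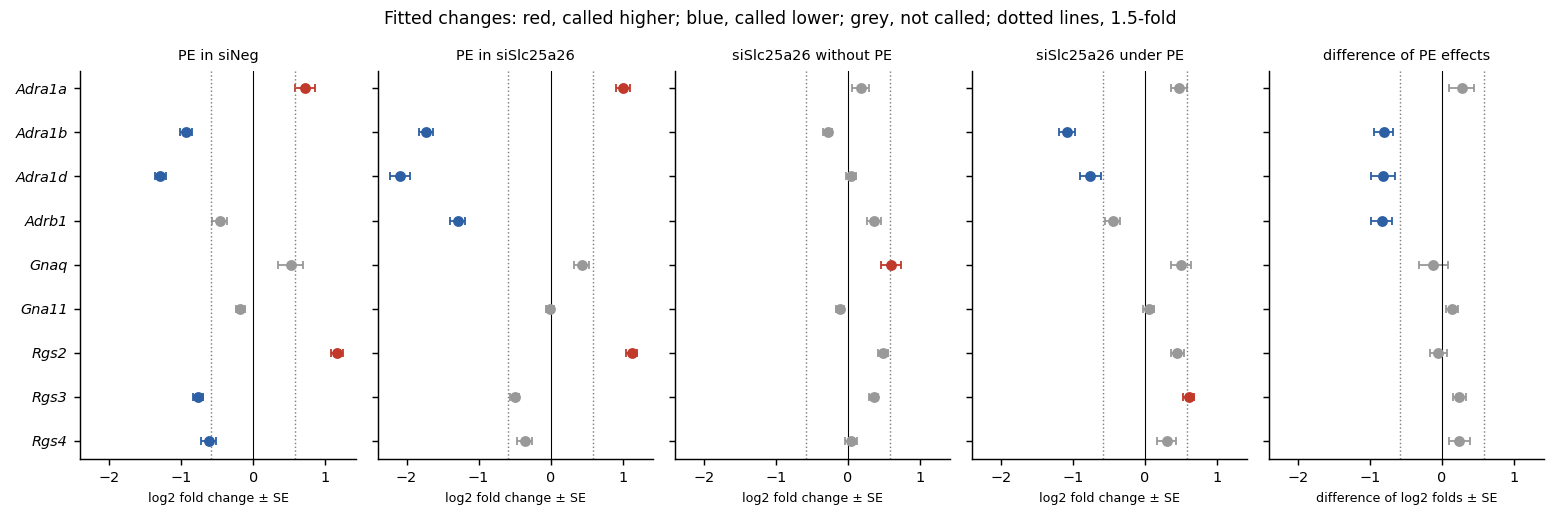
Fitted log2 fold changes ± SE of the 9 genes (rows) in the 5 comparisons (panels), with dotted lines at 1.5-fold. Red points were called higher, blue points lower and grey points were not called. In the panel for the difference of PE effects, 3 receptor genes lie near -0.8.

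The next comparison asked how the libraries labelled siSlc25a26 differed from siNeg without PE. Of the 9 genes, 1 rose (Gnaq) and 8 were not called, with a median log2 fold change of 0.18 against 0.015 for all genes. Among 13829 genes, 8.92% were called higher and 7.2% lower. Gnaq was 1.52-fold higher without overlap (log2 fold change 0.60, SE 0.134, adjusted p = 0.00616), and this call was lost without siNeg replicate 1 (0.497) or siNeg replicate 2 (0.560). The other genes stayed within 1.5-fold. Rgs2 (log2 fold change 0.49, SE 0.0738, adjusted p = 0.000819), Rgs3 (0.36, SE 0.0671, adjusted p = 0.00262) and Adrb1 (0.37, SE 0.0956, adjusted p = 0.012) were higher in every siSlc25a26 library than in any siNeg library. Adra1b was lower in every siSlc25a26 library (log2 fold change -0.28, SE 0.0565, adjusted p = 0.00378). The libraries of Adra1a, Adra1d, Gna11 and Rgs4 overlapped between the siRNAs, with log2 fold changes of 0.18, 0.04, -0.11 and 0.05.

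Under PE, 1 of the 9 was higher in the libraries labelled siSlc25a26 (Rgs3), 2 were lower (Adra1b and Adra1d) and 6 were not called, with a median of 0.30 against -0.003 for all genes. Of 13671 genes, 7.71% were called higher and 8.1% lower. Adra1b was 2.11-fold lower (log2 fold change -1.08, SE 0.109, adjusted p = 0.000101) and Adra1d 1.70-fold lower (log2 fold change -0.76, SE 0.147, adjusted p = 0.00331). Rgs3 was 1.53-fold higher (log2 fold change 0.61, SE 0.0749, adjusted p = 0.000295), and that call was lost without siSlc25a26 PE replicate 2 (0.582). Adra1a (0.47, adjusted p = 0.00973), Gnaq (0.50, adjusted p = 0.0191) and Rgs2 (0.45, adjusted p = 0.00383) had higher log2 levels and Adrb1 a lower one (-0.45, adjusted p = 0.006), each within 1.5-fold and without overlap between the groups. Gnaq was called without siNeg PE replicate 3 (0.605). Rgs4 overlapped between the siRNAs (log2 fold change 0.30, SE 0.131, adjusted p = 0.101), as did Gna11 (0.05, SE 0.0726, adjusted p = 0.639).

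The PE effects with the 2 siRNAs were compared directly over all 12 libraries, as the log2 fold change in siSlc25a26 cells less that in siNeg cells. All 3 calls among the 9 were receptors, each with the stronger fall in siSlc25a26 cells, while 2.16% of 14097 genes were called in the higher direction and 3.34% in the lower. The median over the 9 was -0.05, against -0.045 for all genes. The difference was -0.81 for Adra1b (SE 0.131, adjusted p = 0.00233), -0.82 for Adra1d (SE 0.170, adjusted p = 0.00898) and -0.84 for Adrb1 (SE 0.151, adjusted p = 0.00396). These calls were made in each of the 12 fits that left out 1 library, with values from -0.93 to -0.73, from -1.02 to -0.70 and from -0.94 to -0.74. The other genes were not called, with differences of 0.27 for Adra1a (SE 0.177, adjusted p = 0.357), -0.12 for Gnaq (SE 0.205), 0.14 for Gna11 (SE 0.0855), -0.05 for Rgs2 (SE 0.117, adjusted p = 0.817), 0.24 for Rgs3 (SE 0.0935, adjusted p = 0.123) and 0.24 for Rgs4 (SE 0.150). Markers of other cells called in this comparison had positive differences. They were 4 of 9 smooth muscle and pericyte markers, 3 of the 9 immune markers tested, 1 of the 8 endothelial markers tested (Flt1) and 1 of 10 fibroblast markers (Fn1). The rest of these markers were not called. Of the fibroblast markers 6 had positive and 4 negative differences, and all 4 Schwann cell and neuron markers tested had negative ones. The part of these markers in the receptor differences was not tested.

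Beside these calls, the marker lists stood as follows in the single comparisons, to be read against the shares over all genes given above for each. Of the 10 fibroblast markers, 6 fell under PE in siNeg and 1 in siSlc25a26 cells, 7 were lower with siSlc25a26 without PE, and under PE 4 were lower and 1 higher. Of the 9 smooth muscle and pericyte markers, 5 fell and 1 rose under PE in siNeg cells, 2 fell and 2 rose in siSlc25a26 cells, 5 were lower with siSlc25a26 without PE, and under PE 2 were lower and 1 higher. Of the 11 cardiomyocyte markers, 4 rose under PE with each siRNA (Actn2, Ttn, Myl2 and Ldb3), and Myh6 was lower with siSlc25a26 without PE (log2 fold change -0.66, SE 0.116). Of the immune markers tested, 6 of 8 fell under PE in siNeg and 2 of 9 in siSlc25a26 cells, 5 of 9 were lower and 1 higher (Fcgr3a) with siSlc25a26 without PE, and 1 of 7 was lower under PE. Of the 8 endothelial markers tested, 4 fell under PE in siNeg cells, 1 fell and 1 rose in siSlc25a26 cells, and 2 were lower with siSlc25a26 without PE.

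Other genes of the same signalling system were read from lists. Their counts of calls stand beside the shares over all genes tested. For PE these were 12.4% higher and 8.24% lower in siNeg cells, and 10.1% higher and 10.4% lower in siSlc25a26 cells. Between siRNAs they were 8.92% higher and 7.2% lower without PE, and 7.71% higher and 8.1% lower under PE. The α2 receptor genes Adra2a, Adra2b and Adra2c and the β3 gene Adrb3 averaged at most 0.14 FPKM in any group. Of 11 tested genes for other Gq-coupled receptors, 2 rose and 2 fell under PE in siNeg cells, and 1 rose and 2 fell in siSlc25a26 cells. The serotonin receptor gene Htr2a rose in both (log2 fold change 2.14, SE 0.215, and 2.19, SE 0.262) from 0.453 FPKM in siNeg, and the angiotensin II receptor gene Agtr1a fell in both (-1.0, SE 0.149, and -0.85, SE 0.167). Between siRNAs, the endothelin receptor gene Ednrb was lower with siSlc25a26 without and with PE (-2.63, SE 0.213, and -3.01, SE 0.247), from 0.993 FPKM in siNeg. Agtr1a was lower in both (-0.97, SE 0.139, and -0.83, SE 0.186), and the thrombin receptor gene F2r was higher in both (0.93, SE 0.0663, and 1.53, SE 0.0857).

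Among the 8 tested genes of 15 further RGS genes in the tables, 1 rose and 2 fell under PE with each siRNA. Rgs16 fell in both (log2 fold change -1.11, SE 0.266, and -0.92, SE 0.171) and was higher with siSlc25a26 without and with PE (1.0, SE 0.197, and 1.18, SE 0.241). Rgs5, known from pericytes and heart muscle, rose under PE in both by counts (0.74, SE 0.148, and 0.64, SE 0.217). Its FPKM were low and overlapped in both, at 0.71-1.98 in siNeg and 1.27-1.56 in siNeg PE libraries. With siSlc25a26 they were 0.51-0.89 without and 0.72-2.11 with PE. Of the other G protein α subunit genes, 3 rose and 1 fell among 9 tested under PE in siNeg cells, and 3 rose and 2 fell among 10 tested in siSlc25a26 cells. Gnao1, the Go subunit gene, rose in both (0.79, SE 0.0536, and 0.98, SE 0.0487), from 27.0 to 43.1 FPKM in siNeg cells. Gnai1 rose likewise (0.93, SE 0.104, and 1.42, SE 0.138), and Gnaz fell (-0.77, SE 0.259, and -0.95, SE 0.352) from a low level, 0.453 FPKM in siNeg. Of the β and γ subunit genes 2 fell under PE with each siRNA, among 14 and 13 tested, and Gnb3 fell in both (-1.45, SE 0.212, and -2.23, SE 0.200).

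Downstream of Gq, 6 genes rose and 4 fell of 27 tested effectors under PE in siNeg cells, and 5 rose and 5 fell of 26 in siSlc25a26 cells, with medians of -0.032 and -0.16. The diacylglycerol kinase genes Dgki (1.45 and 1.24) and Dgkh (1.19 and 0.79) rose in both, from levels under 0.5 FPKM in untreated cells. Genes that fell in both were Plcb2 (-1.51, SE 0.318, and -1.15, SE 0.407), a phospholipase Cβ, the protein kinase C gene Prkch (-1.35, SE 0.217, and -0.93, SE 0.339) and Arhgef25 (-1.15 and -0.64), an exchange factor that binds Gq. Plcb2 and Prkch fell from low levels, 0.17 and 0.587 FPKM in siNeg. Their lowest siSlc25a26 PE libraries had 4 and 10 counts. The classical protein kinase C gene Prkca also rose (0.83, SE 0.0986, and 0.91, SE 0.0830), and it is named here although it ranked below the most changed effectors and was chosen after its values were seen. Between siRNAs, 1 effector was higher and 4 were lower of 26 without PE, and 1 was higher and 3 were lower of 26 under PE. In both, Prkd2, a protein kinase D gene, was higher (0.84, SE 0.0985, and 0.80, SE 0.141) and Dgkg was lower (-1.34, SE 0.218, and -0.69, SE 0.160).

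Of the receptor kinase and arrestin genes, 1 of 7 tested rose under PE in siNeg cells, the single call of this list in the 4 group comparisons. That gene was Grk5, a kinase that desensitizes receptors (log2 fold change 0.66, SE 0.0887, adjusted p = 0.000697, in siNeg, and 0.32, SE 0.0504, in siSlc25a26 cells), chosen after its values were seen, and the difference between these PE effects was not called (-0.36, SE 0.103, adjusted p = 0.0407). The list's single call in that comparison was Grk4, another receptor kinase gene (-0.62, SE 0.155, adjusted p = 0.023), also chosen after its values were seen. Of 25 tested genes of the cyclic AMP arm, 8 rose and 2 fell under PE in siNeg cells, and of 26 in siSlc25a26 cells 6 rose and 8 fell. The phosphodiesterase genes Pde4b (1.70, SE 0.105, and 1.62, SE 0.0557) and Pde3b (0.90 and 0.74), which break down cyclic AMP, rose in both. The protein kinase A regulatory subunit gene Prkar2b (1.42 and 1.19) and the exchange factor gene Rapgef4 (1.24 and 1.55) rose as well, while Prkar1b (-0.81 and -1.36) and the adenylyl cyclase gene Adcy9 (-0.64 and -1.07) fell. Rapgef4 and Prkar1b were low, at 0.617 and 0.453 FPKM in siNeg. Between siRNAs, the cyclase gene Adcy2 was higher without and with PE (1.39, SE 0.103, and 1.36, SE 0.0724), as was Prkar2a (0.97, SE 0.0763, and 0.80, SE 0.0740).

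Finally, the genes whose log2 CPM ran most like each member over the 12 libraries were listed as a description, since all 12 share the same 4 groups and 14096 genes were searched for each. For Adra1a these were Itga1 (Pearson r = 0.992) and Atrn (0.991), and Rgs2 ran with Hmgcs1 (0.991). Adra1b ran with Coq8a and Mllt6 (0.996 each), and Adra1d with Inpp5k (0.995) and Acad10 (0.994). Adrb1 was closest to Plcg1 (0.992) and Irx3 (0.987), Gnaq to Rnf214 (0.988) and Tent4b (0.986), and Rgs3 to Prr12 (0.986) and Pcbp2 (0.985). Rgs4 was closest to Rabl2 (0.975) and Gata3 (0.955), and Gna11, which hardly moved, to Tex264 (0.928) and Eva1b (0.917). Among the 9 themselves, Adra1b and Adra1d (0.97) and Adra1a and Rgs2 (0.96) ran most alike, and Adra1a ran opposite to Adra1b (-0.94) and Adra1d (-0.95).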

How the data were processed

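Gene expression was measured by RNA-seq in 12 NRVM libraries, 3 per group. Per the labels, the submitters' processing notes name HISAT, Bowtie2 and the build Rnor_6.0. The authors deposited 2 tables of 18469 genes, 1 of expected counts (estimated counts, 20.8-21.9% of values not whole, rounded here) and 1 of FPKM. All member counts were whole. Genes were filtered with filterByExpr, scaled with TMM factors (0.923-1.053) and tested with edgeR 4.0.16 (quasi-likelihood, Benjamini-Hochberg over all genes tested) in R 4.3.3, within the 6 libraries compared or over all 12 for the difference of PE effects. A call needed a fold above 1.5 and an adjusted p under 0.05. The fits were tested on simulated data. Alternatives used DESeq2 1.42.0 and limma 3.58.1. The design had assumed raw counts. Replicate pairs differed by a chi-square per gene of at least 5.52, so none was taken as 1 library deposited more than once.

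Named genes were all 9 members, Slc25a26, Nap1l5 and Nppa as checks, and up to 6 genes per pathway list called in the same direction in both PE or both siRNA comparisons. Some genes that this rule names are not reported here. Members and lists were chosen with earlier results of these data known. Likeness was Pearson r of log2 CPM (prior count 2). All 9 gene identifiers matched RefSeq GRCr8, of 16962 matched in all.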

Additional observations from a re-analysis of the deposited data

Results flagged for a closer look

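The PE effect differed between the siRNAs, by the test of the difference over all 12 libraries, for 3 members and for the labelled target. As log2 fold change in siSlc25a26 less that in siNeg cells, the values were -0.81 for Adra1b, -0.82 for Adra1d and -0.84 for Adrb1. For Slc25a26 the difference was 1.06 (SE 0.128, adjusted p = 0.000466, edgeR quasi-likelihood test), with a rise of 2.77 on the log2 scale under PE in siSlc25a26 and of 1.69 in siNeg cells. The cause was not tested.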

How the results depend on the processing

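The calls for Adra1a, Adra1b, Adra1d and Rgs2 under PE and for Adra1b, Adra1d and Adrb1 in the difference of PE effects were made under DESeq2, limma-voom, other size factors, other filters, limma on FPKM and every fit without 1 library. Over all settings 696 of the 720 member values kept their direction and their side of the thresholds. With limma on log2(FPKM + 1), 1590 genes were called for PE in siNeg, 1284 for siSlc25a26 without PE (2 of the members) and 1379 under PE, against 2838, 2229 and 2162, and with log2(FPKM + 0.1) 3 members were called for siSlc25a26 without PE. FPKM moved the median over all genes (log2) for PE in siSlc25a26 to -0.125 (pseudocount 1) and -0.171 (0.1) and the higher share of calls from 49.2% to 27.4% and 27.1%, and for the difference of PE effects to -0.109 and -0.143 and from 39.3% to 23.4% and 22.1%. With no fold threshold, by construction, 6785, 7219, 6221, 5488 and 1581 genes were called in the 5 comparisons in the order of the report, and 8 members for PE in siSlc25a26, 5 for siSlc25a26 without PE and 7 under PE. Leaving out 1 library gave 0 to 1 members for siSlc25a26 without PE (0 without siNeg replicate 1 or 2).

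Changes of sign were seen in values that were never called: Gna11 for PE in siSlc25a26 (-0.0369 to 0.0306 when 1 library was left out) and under PE (-0.000462 and -0.000472 with FPKM, -0.0163 to 0.106 when 1 library was left out), without PE Rgs4 (-0.00613 to 0.0898) and Adra1d (-0.0312 to 0.0807), and in the difference of PE effects Rgs2 (-0.124 to 0.0191) and Gnaq (-0.273 to 0.0181). The cause was not tested.

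Same-numbered libraries deviated together weakly or not at all, with mean correlations of 0.12, -0.04, 0.00 and 0.13 in the 4 group comparisons. Libraries of other numbers gave -0.06, 0.02, 0.00 and -0.07. The numbers were not taken as pairs. With a replicate block 2969, 2710, 2151, 2195 and 945 genes were called, and no call of a member changed. The low counts of Gnaq limit its precision.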

Other observations

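The length implied by the 2 deposited tables varied between libraries for Rgs3 more than for most genes, and why was not tested. CPM from the library totals, without TMM factors, divided by FPKM gives this implied length in kilobases. For Rgs3 it was 2.03-2.17 in siNeg, 2.16-2.27 in siNeg PE, 1.80-1.87 in siSlc25a26 and 1.86-1.99 in siSlc25a26 PE libraries, so the siSlc25a26 libraries were below the siNeg libraries at either state of PE treatment without overlap. The highest value was 1.26 times the lowest, and 2.24% of the 10789 genes at 1 FPKM or more in every library had a ratio at least as large (median 1.02). On the FPKM scale Rgs3 was thus 1.53-fold higher with siSlc25a26 without PE and 1.66-fold under PE, against 1.31-fold and 1.54-fold as TMM-normalized CPM. For Rgs2 the ratio of the highest to the lowest was 1.15 and for Gna11 1.06.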
